A study of Homo sapiens with 6 samples.

Results

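The BCL2 family was followed through 10 of its genes, taken as the rows of the deposited table with the gene names BCL2, BCL2L1, MCL1, BCL2A1, BCL2L11, BID, BIK, BAD, BMF and BAK1, out of 33539 genes in the table. All 10 were found, each in 1 row. Polyadenylated RNA had been sequenced from 8505C, an established human cell line derived from an anaplastic thyroid carcinoma. Cells of this 1 line had received an siRNA against POLR1F (siPOLR1F, 3 libraries) or a negative control siRNA (NC, 3 libraries) 24 h earlier. The number after the siRNA name in each label was read as a replicate number. Whether each group received 1 siRNA or several is not stated in the labels. The POLR1F protein belongs to RNA polymerase I, which transcribes ribosomal RNA genes. By its design the study looked for genes whose expression changes when POLR1F is silenced.

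BCL2 family proteins decide at the outer mitochondrial membrane whether a stressed cell enters apoptosis. The effectors BAK and BAX open pores through which cytochrome c leaves the mitochondrion, the survival proteins (BCL2, BCL-xL, MCL1, BFL-1) hold them back, and the BH3-only proteins (BIM, BID, BIK, BAD, BMF) occupy the survival proteins or activate the effectors. Many carcinomas depend on MCL1 and BCL-xL rather than on BCL2, and MCL1 protein turns over quickly. Much of this control acts on the proteins, so that the mRNA levels given here are only 1 layer of it.

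The libraries held between 60576788 and 63038378 counts. POLR1F itself had 2.09, 1.42 and 1.51 FPKM in the siPOLR1F libraries, against 8.80, 8.42 and 7.64 FPKM in the NC libraries (log2 fold change -2.30; edgeR adjusted p = 9.76e-05), where FPKM is the fragment count of a gene divided by its transcript length and by the fragments mapped in its library. Of the thyroid and epithelial markers, KRT8, KRT18 and NKX2-1 were abundant, with a lowest value of 25.7 FPKM (NKX2-1, in siPOLR1F). NKX2-1, a thyroid transcription factor, lay between 25.7 and 28.8 FPKM in siPOLR1F and between 41.8 and 47.2 FPKM in NC (log2 fold change -0.71; edgeR adjusted p = 0.000435), and KRT8, an epithelial keratin, also fell (-0.25; edgeR adjusted p = 0.0197). TG, TSHR and SLC5A5, which mark differentiated thyrocytes, reached at most 0.0256 FPKM in any library, CDH1 reached 0.0509 FPKM and PAX8 lay between 0.218 and 0.777 FPKM. The 10 thyroid and epithelial markers summed to 253 to 286 FPKM in siPOLR1F and 309 to 346 FPKM in NC, and the 4 mesenchymal markers, led by VIM, to 721 to 747 FPKM in siPOLR1F and 703 to 765 FPKM in NC. Among those 4, FN1, which encodes fibronectin, lay between 33.4 and 43.2 FPKM in siPOLR1F and between 48.6 and 53.9 FPKM in NC (log2 fold change -0.44; edgeR adjusted p = 0.0126). Of 7 markers of other cell types, the leukocyte gene PTPRC was at or near 0 and CD68, a lysosomal gene used as a macrophage marker, was highest at 9.94 to 15.7 FPKM in siPOLR1F and 7.51 to 12.4 FPKM in NC. Their sum lay between 11.5 and 19.2 FPKM in siPOLR1F and between 10.4 and 14.6 FPKM in NC. Among them, VWF and PECAM1 differed between libraries within each group. VWF had 0.616, 0.706 and 0 FPKM in siPOLR1F, against 0.0155, 0.539 and 0.0384 FPKM in NC. PECAM1 had 0.492, 0.604 and 0.143 FPKM in siPOLR1F, against 0.171, 0.578 and 0.126 FPKM in NC. COL1A1, ACTA2 and PDGFRB lay between 0.117 and 1.37 FPKM. The part of these markers in the results below was not tested. Nothing in the labels tells separate cultures from repeated preparations of 1 culture, so that p-values reflect only library-to-library spread, which may be technical. In bulk RNA, fewer cells expressing a gene and less RNA per cell cannot be told apart.

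The survival genes MCL1 and BCL2L1 were called modestly higher in siPOLR1F cells, but each call ended without most single libraries. Neither BAK1 nor a tested BH3-only gene among the 10 passed the test. The log2 fold changes were 0.19 for MCL1 and 0.21 for BCL2L1. Those of the tested BH3-only genes were 0.25 (BCL2L11), 0.05 (BID), -0.20 (BAD) and -0.64 (BMF). Of the 10 genes, 8 reached an average of 0.5 FPKM across the 6 libraries and were tested with edgeR on the counts, with p-values adjusted over 13564 genes and a threshold of 0.05. BCL2 and BIK were below that level and were not tested. The 10 genes were chosen with earlier results of these data known, so the shares that follow are description only. Of the 8, 2 were called higher (25.0%), against 10.3% of all genes tested, and 0 were called lower, against 6.94% of all genes. At an unadjusted p under 0.05, 3 were higher and 2 lower, against 17.6% higher and 15.4% lower of all genes tested. DESeq2 also called 2 higher and 0 lower, and limma called 1 higher and 0 lower. The median log2 fold change of the 8 was 0.18, against -0.01 over all genes tested, and both called changes were smaller than the median of 0.41 among all genes called higher. By FPKM, the siPOLR1F and NC libraries did not overlap for 3 of the 8 tested genes with siPOLR1F higher, against 18.9% of all genes tested, and for 1 with siPOLR1F lower, against 19% of all genes tested (37.9% in either direction).

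**Figure D1:**
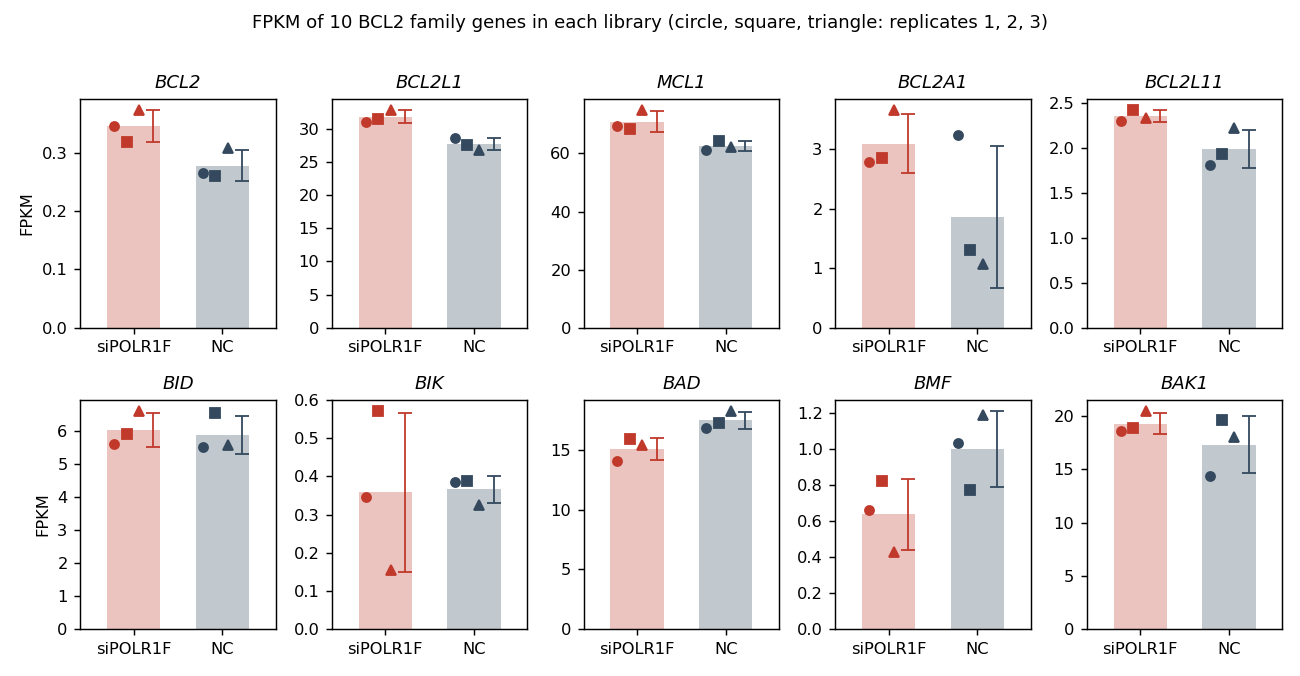
FPKM (vertical axes, each from 0) of each of the 10 genes in the 3 siPOLR1F libraries (red) and the 3 NC libraries (dark blue); symbols are replicates 1, 2 and 3, bars are group means and error bars the SD over 3 libraries. For BCL2, BCL2L1, MCL1 and BCL2L11 each siPOLR1F library was above each NC library, for BAD each was below, and BCL2A1 had 1 NC library (3.23 FPKM) among the siPOLR1F values.

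MCL1 (ENSG00000143384, GRCh38 chromosome 1, 150560895 to 150579610, minus strand) had 69.5, 68.4 and 75.1 FPKM in siPOLR1F, against 61.1, 64.4 and 62.1 FPKM in NC. Each siPOLR1F library was above each NC library, with siPOLR1F replicate 3 the highest. The mean was 71.0 ± 3.58 FPKM in siPOLR1F and 62.5 ± 1.68 FPKM in NC (SD, n = 3 each), a level 13.5% higher in siPOLR1F. The fitted log2 fold change was 0.19 (SE 0.05, 95% interval 0.07 to 0.31; edgeR adjusted p = 0.0377), a fold of 1.05 to 1.24. This call held without NC replicate 2 (edgeR adjusted p = 0.0440) and ended without NC replicate 1 (0.0798), NC replicate 3 (0.0933), siPOLR1F replicate 1 (0.0799), siPOLR1F replicate 2 (0.0565) and siPOLR1F replicate 3 (0.129). It also ended with limma (0.0571 and 0.0572) and with no filter on low values (0.131). Over all alternatives the adjusted p ranged from 0.0104 to 0.131, and the log2 fold change from 0.15 to 0.22. MCL1 overlaps 43 bases of ADAMTSL4 on the other strand, which had 359 to 726 counts per library against 26785 or more for MCL1.

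BCL2L1 (ENSG00000171552, chromosome 20, 31664452 to 31723989, minus strand) encodes BCL-xL and, by alternative splicing, the death-promoting BCL-xS, which counts per gene do not separate. It had 31.0, 31.5 and 32.9 FPKM in siPOLR1F, against 28.6, 27.5 and 26.8 FPKM in NC. The groups did not overlap, and the siPOLR1F values lay within 2 FPKM of each other. The mean was 31.8 ± 0.977 FPKM in siPOLR1F and 27.7 ± 0.909 FPKM in NC (SD, n = 3 each), 15.1% higher in siPOLR1F. The fitted log2 fold change was 0.21 (SE 0.05, 95% interval 0.09 to 0.33; edgeR adjusted p = 0.0301). The call held without NC replicate 1 (edgeR adjusted p = 0.0241) and ended without NC replicate 2 (0.0547), NC replicate 3 (0.0914), siPOLR1F replicate 1 (0.0698), siPOLR1F replicate 2 (0.0762) and siPOLR1F replicate 3 (0.112). It also ended with no filter on low values (0.0738). Its adjusted p over all alternatives lay between 0.00604 and 0.112. The antisense gene ABALON overlaps 1903 bases of BCL2L1 and had 95 to 169 counts per library, against 7808 or more for BCL2L1. This overlap is one of gene spans, and the overlap of exons was not computed. Without a stated strand setting, how far reads of the 2 genes were mixed there is not known.

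The sequences before the gene starts differ in composition and motifs. RefSeq gave the 250 bases before its own gene start for 8 of the 10 genes, all but MCL1 and BIK. For BCL2L11 that start lies 1536 bases inside the gene span of the deposited table and for BCL2 359 bases inside it, while for the other 6 the starts were within 39 bases. The 3 shown are those of BCL2L1, which rose, and of BCL2L11 and BMF, which had the highest and the lowest fitted log2 fold change of the tested BH3-only genes among the 10. Each runs from base 250 to base 31 before the start (RefSeq, GRCh38.p14). Capitals mark the letters of the TATA box (TATAAA), of the GC box that SP1 can bind (GGGCGG) and of the FOXO motif (GTAAACA). All were searched on both strands, and the matches do not overlap. They are matches of letters only, and binding or use as a promoter element was not tested.
BCL2L1 (chr20:31723994-31724213, minus strand): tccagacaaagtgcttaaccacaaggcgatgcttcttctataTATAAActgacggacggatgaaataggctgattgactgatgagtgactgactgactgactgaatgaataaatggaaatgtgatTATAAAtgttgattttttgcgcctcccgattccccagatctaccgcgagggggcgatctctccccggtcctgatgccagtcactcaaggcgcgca
BCL2L11 (chr2:111120664-111120883, plus strand): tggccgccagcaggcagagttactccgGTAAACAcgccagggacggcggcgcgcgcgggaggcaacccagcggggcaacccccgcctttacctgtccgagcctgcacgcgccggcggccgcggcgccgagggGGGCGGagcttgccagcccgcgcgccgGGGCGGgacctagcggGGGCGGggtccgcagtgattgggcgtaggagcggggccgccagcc
BMF (chr15:40108910-40109129, minus strand): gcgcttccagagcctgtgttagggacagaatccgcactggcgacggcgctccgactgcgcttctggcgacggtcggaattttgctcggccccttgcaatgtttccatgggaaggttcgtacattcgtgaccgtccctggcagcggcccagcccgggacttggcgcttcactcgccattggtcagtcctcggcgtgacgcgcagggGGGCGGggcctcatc
Over the full 250 bases, TATAAA was found in BCL2L1 and BCL2A1 (2 of 8), against 11.1% of 27305 promoters, and the 2 copies in BCL2L1 begin 208 and 125 bases before the start. GGGCGG was found in BCL2L11, BID, BAD, BMF and BAK1 (5 of 8), against 42.3% of promoters, and in none of the 3 survival genes that had a sequence. GTAAACA was found in BCL2L11 alone of the 8, against 2.98% of promoters. CCAAT was found in BCL2L11, BAD, BMF and BAK1 (33.0% of promoters) and TGACG, found in cyclic AMP response elements, in BCL2, BCL2L1, BAD and BMF (21.7%). CACGTG (6.49%), CCGGAAG (8.82%) and an NF-kappaB motif, GGGA and TTCC with any 2 bases between (1.42%), were found in none of the 8. The share of G and C was 50.0% in BCL2L1, 38.8% in BCL2A1 and 70.0% in BCL2, the 3 survival genes with a sequence. It was 76.8% in BCL2L11, 72.0% in BID, 66.4% in BAD, 65.2% in BMF and 58.0% in BAK1. The median over all promoters was 58.0%.

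BCL2A1 (ENSG00000140379, chromosome 15, 79960892 to 79971196, minus strand), the survival gene for BFL-1 and a target of NF-kappaB, had the widest interval of its log2 fold change among the tested genes of the 10. It had 2.78, 2.84 and 3.66 FPKM in siPOLR1F, against 3.23, 1.30 and 1.07 FPKM in NC. NC replicate 1 lay among the siPOLR1F libraries, and NC replicates 2 and 3 lay below all of them. The counts were 193, 199 and 254 in siPOLR1F and 227, 89 and 75 in NC, and the exact 95% Poisson interval of NC replicate 1 (198 to 259) did not meet those of NC replicate 2 (71.5 to 110) and NC replicate 3 (59.0 to 94.0). These intervals cover counting error only. The log2 fold change was 0.73 (SE 0.39, 95% interval -0.15 to 1.61; edgeR adjusted p = 0.229), and the exact two-sided permutation p on FPKM was 0.3, where 3 against 3 libraries allow no less than 0.1. Without NC replicate 1 the log2 fold change was 1.37 (edgeR adjusted p = 0.0114), whereas without any other single library it was 0.45 to 0.79. The adjusted p over all alternatives ranged from 0.0114 to 0.479.

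BCL2 (ENSG00000171791, chromosome 18, 63123346 to 63320128, minus strand), the founding survival gene, was barely expressed in these cells. It had 0.347, 0.319 and 0.374 FPKM in siPOLR1F, against 0.265, 0.260 and 0.309 FPKM in NC, that is 305, 284 and 329 counts in siPOLR1F against 237, 223 and 272 counts in NC. The groups did not overlap, but the mean was under the level set for testing, and BCL2L1 was 88.0 to 98.9 times as high per length in siPOLR1F and 86.9 to 108 times as high in NC. In a fit with no such minimum the log2 fold change of BCL2 was 0.34 (edgeR adjusted p = 0.318).

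The BH3-only genes among the 10 gave values in both directions, none past the test. Of the 4 tested, 0 were called by edgeR, DESeq2 or limma. At an unadjusted p under 0.05, 1 was higher and 2 were lower, against 17.6% higher and 15.4% lower of all genes tested. Their median log2 fold change was -0.08. BCL2L11 (ENSG00000153094, chromosome 2, 111119378 to 111168445, plus strand) encodes BIM, which binds every survival protein of the family. It had 2.30, 2.43 and 2.34 FPKM in siPOLR1F, against 1.81, 1.93 and 2.23 FPKM in NC. All siPOLR1F libraries were above all NC libraries, by a narrow gap to NC replicate 3. The log2 fold change was 0.25 (SE 0.10, 95% interval 0.02 to 0.47; edgeR adjusted p = 0.119). Along 49068 bases BCL2L11 lies opposite MIR4435-2HG, a long noncoding RNA gene with 4223 to 5745 counts per library that was itself lower in siPOLR1F (log2 fold change -0.25; edgeR adjusted p = 0.0434). BCL2L11 itself had 857 to 1142 counts. The overlap is one of gene spans with their introns, and the overlap of exons was not computed. With no strand setting stated, how far reads of the 2 genes were mixed is not known.

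BMF (ENSG00000104081, chromosome 15, 40087890 to 40108879, minus strand), whose protein is held at the cytoskeleton by a dynein light chain, had the lowest fitted value of the family. Its FPKM was 0.660, 0.821 and 0.426 in siPOLR1F, against 1.03, 0.774 and 1.19 in NC. The groups overlapped, since siPOLR1F replicate 2 was above NC replicate 2. The mean was 0.636 ± 0.199 FPKM in siPOLR1F and 1.00 ± 0.211 FPKM in NC (SD, n = 3 each), and the fitted log2 fold change was -0.64 (SE 0.26, 95% interval -1.23 to -0.05; edgeR adjusted p = 0.125). Leaving out 1 library moved the log2 fold change between -0.87 and -0.42, with no adjusted p below 0.0802, and DESeq2 gave 0.0530.

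BAD (ENSG00000002330, chromosome 11, 64269830 to 64284665, minus strand), whose protein is kept inactive by kinases and 14-3-3 proteins, was the most abundant BH3-only gene among the 10. It had 14.1, 15.9 and 15.4 FPKM in siPOLR1F, against 16.9, 17.3 and 18.3 FPKM in NC. Each siPOLR1F library was below each NC library. The log2 fold change was -0.20 (SE 0.07, 95% interval -0.37 to -0.04; edgeR adjusted p = 0.0902), and the adjusted p stayed between 0.0672 and 0.237 over all alternatives. GPR137 lies opposite BAD over 14604 bases of gene span, introns included. It had 1233 to 1509 counts, near the 1676 to 2174 counts of BAD. The overlap of exons was not computed, and the division of reads between the pair is uncertain.

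BID (ENSG00000015475, chromosome 22, 17734138 to 17774495, minus strand), which caspase-8 cleaves to link death receptors to mitochondria, had 5.59, 5.91 and 6.60 FPKM in siPOLR1F, against 5.51, 6.54 and 5.57 FPKM in NC. The groups were interleaved. The log2 fold change was 0.05 (SE 0.09, 95% interval -0.17 to 0.26; edgeR adjusted p = 0.778), so that the interval leaves room for a fold between 0.890 and 1.20. BIK (ENSG00000100290, chromosome 22, 43110750 to 43129712, plus strand), a BH3-only gene whose protein sits mainly at the endoplasmic reticulum, was at the edge of detection. It had 23, 39 and 11 counts in siPOLR1F and 26, 25 and 22 counts in NC, or 0.155 to 0.572 FPKM in siPOLR1F and 0.324 to 0.388 FPKM in NC. The NC libraries lay within the siPOLR1F range, and exact 95% Poisson intervals of 5.49 to 19.7 for the lowest count and 27.7 to 53.3 for the highest show how little such counts resolve.

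BAK1 (ENSG00000030110, chromosome 6, 33572547 to 33580293, minus strand), the gene of the effector BAK, had 18.6, 18.9 and 20.5 FPKM in siPOLR1F, against 14.4, 19.6 and 18.0 FPKM in NC. The groups overlapped, and NC replicate 1 was the lowest of the 6 libraries. The log2 fold change was 0.16 (SE 0.11, 95% interval -0.08 to 0.41; edgeR adjusted p = 0.328), and it lay between 0.05 and 0.26 when 1 library was left out. The pseudogenes BAK1P1 and BAK1P2 had at most 25 counts and 2 counts in any library, against 2248 or more for BAK1.

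**Figure D2:**
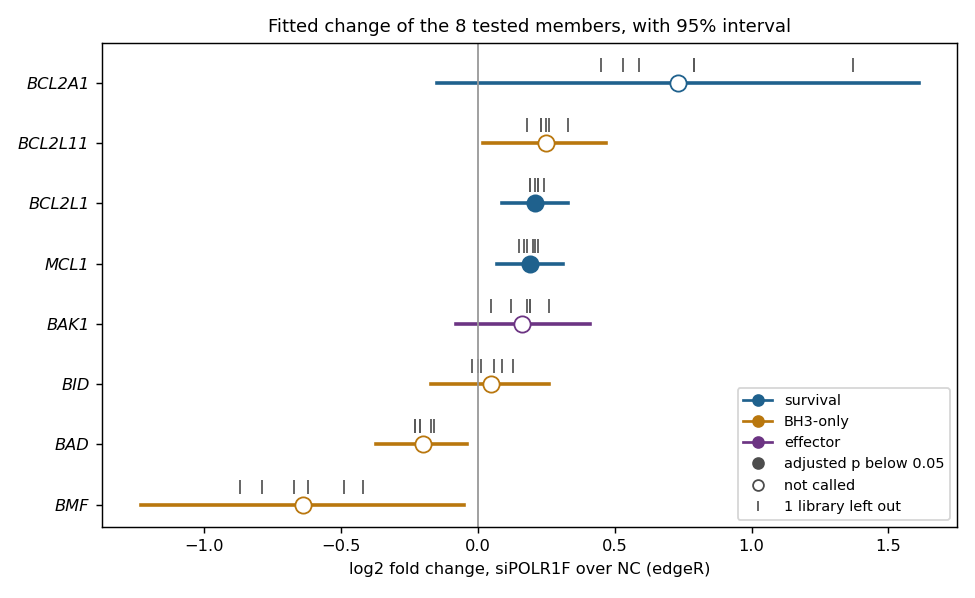
Log2 fold change of siPOLR1F over NC (horizontal axis, edgeR) for the 8 tested genes, as circles with 95% intervals as lines, coloured by role; filled circles passed the adjusted p threshold, and ticks above each line are the values with 1 library left out. BCL2A1 and BMF have the widest intervals and ticks, and MCL1 (0.19) and BCL2L1 (0.21) have narrow intervals above 0.

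In both groups the FPKM ranked MCL1 first and BCL2L1 second among the 10 genes, with no overlap between neighbours. MCL1 was above 98.5% to 98.8% of all genes in the table and BCL2L1 above 95.8% to 96.6%, while BCL2 was above 52.9% to 57.7%. BAK1 (19.3 ± 0.989 FPKM) came next and then BAD (15.1 ± 0.925 FPKM) in siPOLR1F, with ranges apart, whereas in NC BAD (17.5 ± 0.726 FPKM) and BAK1 (17.3 ± 2.67 FPKM) overlapped (SD, n = 3 each). BID followed in both groups. BCL2A1 (3.09 ± 0.496 FPKM) stood above BCL2L11 (2.36 ± 0.0681 FPKM) in siPOLR1F with ranges apart, and in NC the ranges of BCL2L11 (1.99 ± 0.215 FPKM) and BCL2A1 (1.86 ± 1.19 FPKM) overlapped, as did those of BCL2A1 and BMF. BMF, BIK and BCL2 were lowest in both groups. In siPOLR1F the ranges of BMF and BIK and of BIK and BCL2 overlapped, and in NC those 3 were apart. The gap in NC between BIK (lowest 0.324 FPKM) and BCL2 (highest 0.309 FPKM) was narrow. BIK had only 22 to 26 counts there, and counting error is not part of these ranges.

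Within each library, the survival transcripts of the 10 genes were set against their BH3-only transcripts. With all 5 BH3-only genes counted the ratio was higher in siPOLR1F, but without BAD the groups overlapped. The summed FPKM of the 4 survival genes was 104, 103 and 112 in siPOLR1F, against 93.2, 93.5 and 90.3 in NC. The summed FPKM of the 5 BH3-only genes was 23.0, 25.6 and 24.9 in siPOLR1F, against 25.6, 27.0 and 27.6 in NC. The survival sums did not overlap between the groups and the BH3-only sums did. The ratio of survival to BH3-only FPKM was 4.50, 4.02 and 4.50 in siPOLR1F, against 3.64, 3.46 and 3.27 in NC, and each siPOLR1F library was above each NC library. The sums are mostly those of 3 genes. MCL1 made up 66.3% to 67.0% of the survival sum in siPOLR1F and 65.6% to 68.9% in NC. BCL2L1 made up 29.4% to 30.6% in siPOLR1F and 29.5% to 30.7% in NC. BAD made up 61.3% to 62.0% of the BH3-only sum in siPOLR1F and 64.3% to 66.2% in NC. Without BAD, the ratio was 11.7, 10.6 and 11.8 in siPOLR1F, against 10.7, 9.70 and 9.69 in NC, and the groups overlapped. The 5 do not include PMAIP1, a BH3-only gene with 23.8 to 27.5 FPKM in siPOLR1F and 20.1 to 21.3 FPKM in NC. With PMAIP1, BBC3 and HRK added after the values were seen, the BH3-only sum was 51.5, 50.5 and 51.7 FPKM in siPOLR1F, against 46.6, 49.0 and 48.8 FPKM in NC, and so higher in siPOLR1F. The ratio of survival to BH3-only FPKM was then 2.01, 2.04 and 2.17 in siPOLR1F, against 2.00, 1.91 and 1.85 in NC, a narrow gap. The survival side was not extended in the same way. It left out BCL2L2, another family gene, which had 6.92, 7.48 and 7.33 FPKM in siPOLR1F, against 7.78, 7.93 and 8.36 FPKM in NC. BCL2L2 was lower in siPOLR1F without overlap but not called (edgeR adjusted p = 0.181), and a ratio that includes it was not computed. These sums and ratios were not tested, since the genes were chosen with results of these data known.

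Other ratios within a library were described and not tested. The ratio of MCL1 to BCL2L1 FPKM was 2.24, 2.17 and 2.28 in siPOLR1F and 2.14, 2.34 and 2.31 in NC, with the groups interleaved. The ratio of survival FPKM to that of the effector BAK1 was 5.57, 5.44 and 5.47 in siPOLR1F and 6.47, 4.76 and 5.03 in NC, and the siPOLR1F values lay inside the NC range. The ratio of BCL2L11 to BMF was 3.49, 2.96 and 5.50 in siPOLR1F and 1.76, 2.50 and 1.87 in NC, which did not overlap. In the set followed here, BCL2L11 had the highest fitted log2 fold change of the tested BH3-only genes (0.25) and BMF the lowest (-0.64). Dividing the highest by the lowest favours a gap between the groups, so this gap adds no further result. Neither gene was called (edgeR adjusted p = 0.119 for BCL2L11 and 0.125 for BMF), and the BMF groups overlapped.

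**Figure D3:**
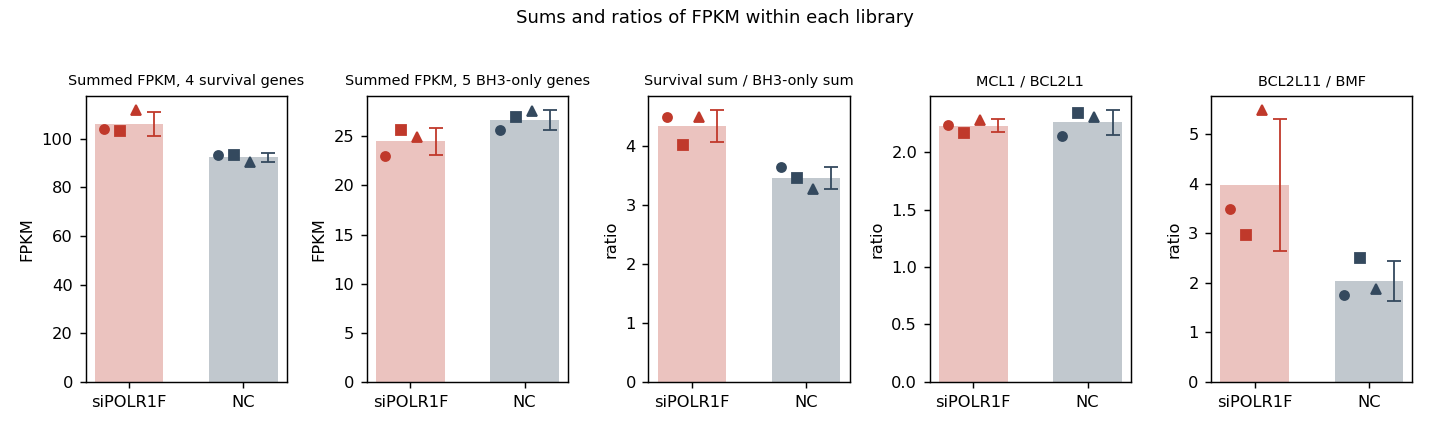
Summed FPKM of the survival and of the BH3-only genes, and FPKM ratios within each library (vertical axes from 0), in siPOLR1F (red) and NC (dark blue); symbols are replicates 1, 2 and 3, bars are means and error bars the SD over 3 libraries. The survival sum over the BH3-only sum lies between 4.02 and 4.50 in siPOLR1F and between 3.27 and 3.64 in NC.

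Of 14 other genes of the family and its relatives, 10 were tested, 2 rose, 2 fell and 6 did not pass, a share called of 40.0%, against 17.2% of all genes tested. PMAIP1, whose product NOXA binds MCL1, had 27.5, 23.8 and 25.9 FPKM in siPOLR1F, against 20.1, 21.3 and 20.2 FPKM in NC, with no overlap (log2 fold change 0.34; edgeR adjusted p = 0.0167). BCL2L13, a mitophagy receptor, had 6.28, 6.11 and 5.86 FPKM in siPOLR1F, against 4.49, 4.36 and 4.49 FPKM in NC (0.46; edgeR adjusted p = 0.00272). BNIP3 and BNIP3L, hypoxia-induced mitophagy receptors, fell by 0.28 (edgeR adjusted p = 0.00506) and 0.35 (edgeR adjusted p = 0.0240) on the log2 scale. BNIP3 averaged 73.2 ± 1.02 FPKM in siPOLR1F and 89.0 ± 2.26 FPKM in NC (SD, n = 3 each). The call of PMAIP1 ended without siPOLR1F replicate 1 (edgeR adjusted p = 0.0585), siPOLR1F replicate 3 (0.0609) or NC replicate 3 (0.0538). That of BNIP3L ended without siPOLR1F replicate 1 (0.0518), replicate 2 (0.0682) or replicate 3 (0.0891). BAX, the other pore-forming effector, averaged 13.5 ± 1.16 FPKM in siPOLR1F and 13.3 ± 0.434 FPKM in NC (SD, n = 3 each; log2 fold change 0.03, edgeR adjusted p = 0.831), and BBC3, the gene of the BH3-only protein PUMA, was at 0.956 ± 0.0540 FPKM in siPOLR1F and 0.841 ± 0.118 FPKM in NC (SD, n = 3 each; edgeR adjusted p = 0.488). These 2 were named after their values were seen.

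Among 22 genes whose products bind BCL2 family proteins or set their turnover, 3 rose and 0 fell (13.6% called, against 17.2% of all genes), with 5 higher and 4 lower at an unadjusted p under 0.05. DESeq2 called 3 higher and 2 lower, and limma 3 and 0. FBXW7, which marks MCL1 protein for degradation, had 1.99, 1.81 and 1.89 FPKM in siPOLR1F, against 1.15, 1.25 and 1.32 FPKM in NC (log2 fold change 0.62; edgeR adjusted p = 0.00269). BAG1, a co-chaperone that binds BCL2, rose by 0.40 (edgeR adjusted p = 0.00442) and AKT1, a kinase that phosphorylates BAD, by 0.22 (edgeR adjusted p = 0.0158). AKT1 did not pass without siPOLR1F replicate 2 (edgeR adjusted p = 0.0662) or replicate 3 (0.0628).

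Of 14 tested regulators of transcription with known targets in the family, 3 rose, 1 fell and 10 did not pass (28.6% called, against 17.2% of all genes). DDIT3, the stress factor CHOP, had 6.71, 4.48 and 4.44 FPKM in siPOLR1F, against 3.37, 1.59 and 2.33 FPKM in NC, with no overlap (log2 fold change 1.10, SE 0.29; edgeR adjusted p = 0.0320). STAT3, which activates MCL1 and BCL2L1, rose by 0.31 (edgeR adjusted p = 0.0111) and NFKB1, a subunit of NF-kappaB, by 0.28 (edgeR adjusted p = 0.0442). MITF, which activates BCL2 and BCL2A1 in melanocytes, fell by 0.28 (edgeR adjusted p = 0.0358). Only the STAT3 call held without any single library (edgeR adjusted p up to 0.0471). The DDIT3 call held only without NC replicate 1 and was otherwise at 0.0535 (without siPOLR1F replicate 2) to 0.104 (without siPOLR1F replicate 1). The MITF call ended without each library in turn (0.0575 to 0.119), and the NFKB1 call without each library except NC replicate 2 (0.0595 to 0.132). With the 2 limma fits, NFKB1 and MITF did not pass either (0.0516 to 0.0863).

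In the death receptor arm that BID joins to mitochondria, 9 genes were tested, of which 1 rose, 2 fell and 6 did not pass (33.3% called, against 17.2% of all genes). The receptors for the death ligand TRAIL went apart. TNFRSF10A had 8.01, 6.99 and 8.50 FPKM in siPOLR1F, against 5.11, 6.52 and 5.42 FPKM in NC (log2 fold change 0.47; edgeR adjusted p = 0.0253), and TNFRSF10B had 25.0, 24.7 and 24.3 FPKM in siPOLR1F, against 31.5, 35.4 and 34.8 FPKM in NC (-0.45; edgeR adjusted p = 0.00164). TNFRSF10B held its call without any single library (edgeR adjusted p = 0.0118 or less), whereas TNFRSF10A lost it without siPOLR1F replicate 1 (0.0786), siPOLR1F replicate 3 (0.0977), NC replicate 1 (0.0692) or NC replicate 3 (0.0841). FAS, another death receptor, fell by 0.37 (edgeR adjusted p = 0.0283) at 0.565 ± 0.0391 FPKM in siPOLR1F and 0.734 ± 0.0523 FPKM in NC (SD, n = 3 each). Its call held only without NC replicate 2, and without each other library the adjusted p was 0.0559 to 0.0941; the limma fits gave 0.198 and 0.211. The initiator caspase gene CASP8, chosen for mention with its value in view, differed by 0.08 on the log2 scale (edgeR adjusted p = 0.422).

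Downstream of the mitochondrial pore, 12 genes were tested, 1 rose and 0 fell (8.33% called, against 17.2% of all genes), with 2 higher and 1 lower at an unadjusted p under 0.05. DESeq2 called 2 higher and 0 lower, and limma 1 and 0. Their median log2 fold change was -0.01. BIRC5, the gene of survivin and itself a mitotic gene, rose by 0.28 (edgeR adjusted p = 0.0139), and did not pass without siPOLR1F replicate 2 (0.0546) or replicate 3 (0.0588). Over the 5 lists, 67 genes were tested, 10 rose and 5 fell (22.4% called, against 17.2% of all genes), with a median log2 fold change of 0.01. Leaving out siPOLR1F replicate 1 or replicate 2 gave 6 higher and 2 lower calls, leaving out siPOLR1F replicate 3 gave 4 and 2, and leaving out NC replicate 3 gave 6 and 3. With no filter on low values, 5 were higher and 2 lower, and the calls of PMAIP1 (0.0559), BNIP3L (0.0998), DDIT3 (0.127), NFKB1 (0.131), MITF (0.0989), FAS (0.0979), TNFRSF10A (0.107) and BIRC5 (0.0564) ended, by edgeR adjusted p.

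**Figure D4:**
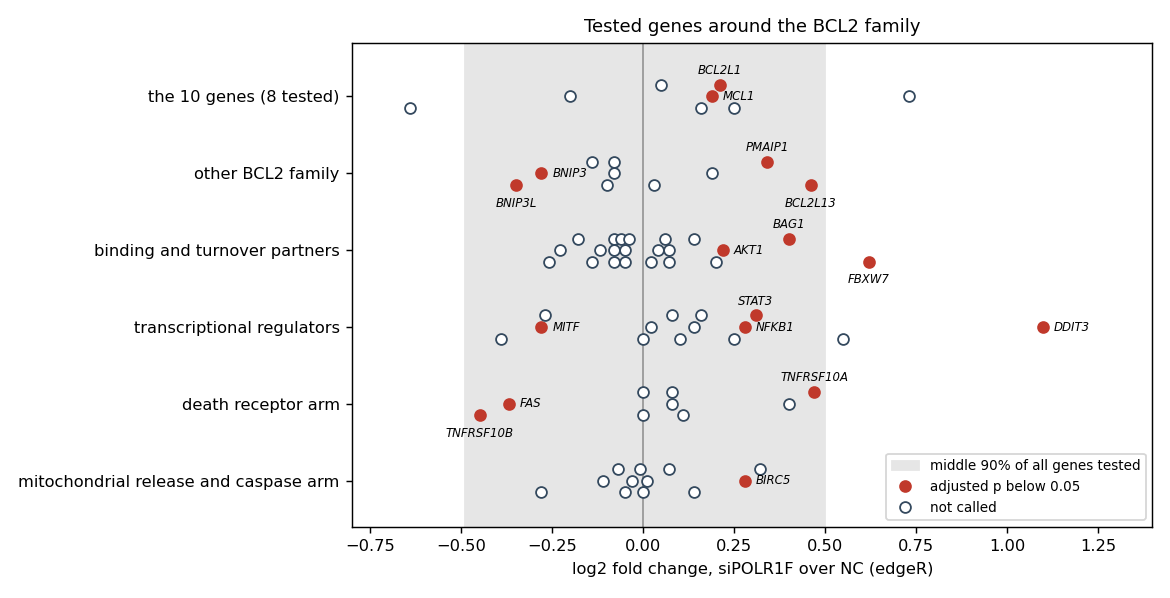
Log2 fold change of siPOLR1F over NC (horizontal axis, edgeR) of the tested genes among the 10 and in 5 lists around the BCL2 family; each circle is a gene, filled red where the adjusted p was below 0.05. The grey band, -0.49 to 0.50, holds the middle 90% of all genes tested, and DDIT3 (1.10) and FBXW7 (0.62) are the called genes outside it.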

How the data were processed

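Poly(A) RNA of 8505C cells was sequenced in 3 siPOLR1F and 3 NC libraries, 24 h after siRNA. The submitters' processing notes name HISAT2, StringTie, fastp and GRCh38 (hg38). Tool versions, the annotation release, the strand setting and the treatment of multi-mapped reads are not stated there. The authors deposited 1 table holding, for each gene in each library, a raw count and an FPKM. Library labels supplied the groups and replicate numbers.

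The deposited counts were tested in R 4.3.3 by the two-sided quasi-likelihood test of edgeR 4.0.16 with TMM factors. The 13564 genes that averaged 0.5 FPKM or more entered, holding 99.4% of the counts; p-values were adjusted by Benjamini-Hochberg over all of them. The SE was the log2 fold change divided by the square root of F, and 95% intervals used the fit's degrees of freedom. Deposited FPKM were used for levels, sums, ratios and exact permutation tests. Within a group, no pair of libraries was within sampling noise (chi-square per degree of freedom of 20.5 or more). Alternatives were DESeq2 1.42.0, limma 3.58.1 on log2(FPKM + 1) and log2(FPKM + 0.1), other scalings, other filters, a replicate block and leaving out each library. Promoter sequences came from RefSeq.

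The 10 genes and all lists were chosen with earlier results of these data known. The naming rule took the 10 genes, POLR1F, the markers and, per list, up to 4 called genes with the smallest adjusted p. CD3E was not analysed here, and 1 gene of the caspase list and 1 thyroid marker are not reported here and are left out of the list counts.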

Additional observations from a re-analysis of the deposited data

How the results depend on the processing

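All 14 alternatives kept the direction of the 8 tested genes (13 for BMF, which a minimum mean FPKM of 1 removed), except that BID (0.05) ran from -0.02 without siPOLR1F replicate 3 to 0.13 without NC replicate 2. With no filter on low values the calls over all genes were 663 higher and 313 lower, those among the 10 genes 0 higher, and those in the 5 lists 5 higher and 2 lower; the cause was not tested. Limma with either pseudocount called 1 of the 10 genes higher (BCL2L1; MCL1 had an adjusted p of 0.0571 and 0.0572) and 3 genes of the lists lower. Leaving out 1 library gave 730 to 1326 higher and 423 to 841 lower genes over all, 0 to 2 higher among the 10, and 4 to 13 higher and 2 to 4 lower in the lists; fewer samples enter these fits. The other scalings kept 2 of the 10 genes higher. With the replicate number as a replicate block, edgeR called 1517 higher and 1125 lower genes, 2 of the 10 higher, and 12 higher and 5 lower in the lists, while NFKB1 did not pass (adjusted p = 0.0516). Deviations of same-numbered libraries correlated at 0.293, 0.016 and 0.274, and each library correlated best with the one of its own number, a hint from the data only. Depth limits BIK (11 to 39 counts) most.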

Other observations

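The deposited annotation assigns 131 genes to the KEGG apoptosis pathway, of which 108 were tested. edgeR called 18 of these higher and 6 of these lower, which is 22.2%, against 17.2% of all genes tested, and their median log2 fold change was 0.01. The pathway includes several of the genes described above.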
